A study of Mus musculus with 7 samples.

Results

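The miR-130/miR-301 family is a set of microRNAs (miRNAs), short guides of messenger RNA repression, with 1 shared seed, the bases at positions 2 to 8 from the 5′ end through which a miRNA pairs with its targets. Its members were taken by name from a table of 1915 mature miRNAs: mmu-miR-130a-3p, mmu-miR-130b-3p, mmu-miR-301a-3p and mmu-miR-301b-3p, 4 of 4 found (mmu, for mouse, is left out from here on). The table comes from small RNA sequencing of colorectum from female C57BL/6 mice (wild type), which asked how miRNAs differ between mice with early colorectal cancer (CRC) and healthy mice. The 3 CRC mice (M4, M5 and M6) had been injected at 7 weeks of age with the colon carcinogen azoxymethane (AOM, 10 mg per kg) and from 5 days later drank 2.5% dextran sodium sulfate (DSS), an agent of colon injury, for 7 days, with 14 days of plain water after it. The labels call their stage T1, at day 17. They also state that the DSS cycle was repeated 3 times, and from which event day 17 runs was not established here. The 3 healthy mice (M1, M2 and M3), of the same age, had received 0.9% saline. No group received AOM or DSS alone, so carcinogen, DSS injury and tumours cannot be told apart, and "CRC" names the treated group.

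A miRNA is cut from a hairpin whose 5p and 3p strands can each enter an Argonaute protein; the strand that is kept guides repression and its partner is mostly degraded. The seed of the miR-130/miR-301 family is known from human and mouse work for repressing the TGF-beta pathway genes Tgfbr2 and Smad4. In human cells miR-301a is known to repress NKRF, a brake on the inflammatory factor NF-kB, miR-130a to repress the homeobox genes MEOX2 and HOXA5 in endothelium, and miR-130b to repress PPARG and the cell cycle inhibitor CDKN1A. Less is known of miR-301b.

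The mature sequences explain which comparisons between members are safe, so they are shown first, as the table gives them in DNA letters, with the seed in capitals:
miR-130a-3p: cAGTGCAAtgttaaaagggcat
miR-130b-3p: cAGTGCAAtgatgaaagggcat
miR-301a-3p: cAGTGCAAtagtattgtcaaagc
miR-301b-3p: cAGTGCAAtggtattgtcaaagc
All 4 begin with the same 9 bases. Within each pair the rest is nearly the same. Counting from 1 at the 5′ end, miR-130a-3p differs from miR-130b-3p by T11A and A13G over 22 bases, and miR-301a-3p from miR-301b-3p by A10G alone over 23 bases. A read with 1 or 2 sequencing errors could therefore be counted for the other member of a pair, and the number of mismatches the authors allowed is not stated in these sources. Against entries on the opposite strand, the longest run any of the 4 shares is 9 bases.

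The hairpins, which are the RNAs both strands are cut from, are given here from RefSeq (GRCm38.p6) in RNA letters, with the 5p and then the 3p strand in capitals:
miR-130a hairpin: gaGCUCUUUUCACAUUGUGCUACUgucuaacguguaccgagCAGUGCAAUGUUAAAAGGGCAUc
miR-130b hairpin: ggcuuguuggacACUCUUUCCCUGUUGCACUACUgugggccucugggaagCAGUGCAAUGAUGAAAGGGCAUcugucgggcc
miR-301a hairpin: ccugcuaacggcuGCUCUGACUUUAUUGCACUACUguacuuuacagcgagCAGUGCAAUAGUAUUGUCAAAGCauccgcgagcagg
miR-301b hairpin: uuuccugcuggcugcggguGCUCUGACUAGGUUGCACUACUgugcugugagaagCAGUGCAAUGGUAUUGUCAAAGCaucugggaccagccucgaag
RefSeq held all 4 hairpins and 3 of the 4 mature 3p sequences. In GRCm38, Mir130a (chr2:84741115-84741178, minus strand) lies in no annotated host gene, with the protein-coding Gm19426 990 bases away on the same strand. Mir301, the gene of miR-301a (chr11:87113004-87113089, plus strand), lies in an intron of Ska2, which encodes a kinetochore protein. Mir130b (chr16:17124061-17124142) and Mir301b (chr16:17124400-17124496) lie on the minus strand within 2610318N02Rik, outside its exons, with 257 bases between them. None of the 4 overlaps an exon, coding sequence or UTR of another gene in GENCODE M21.

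Total miRNA counts ran from 3206127 (M6) to 6601899 (M4) in CRC mice and from 8222508 (M3) to 15280434 (M2) in healthy mice. Levels below are counts scaled to CPM (the count of a miRNA per 1e+06 counts of its library) on library sizes scaled by TMM, a method that sets the bulk of miRNAs equal between libraries; its factors ran from 0.948 to 1.55 in CRC mice and from 0.582 to 1.10 in healthy mice. The mice did not sort cleanly by group. Over the 878 miRNAs tested, the root-mean-square difference in log2 CPM was 0.86 between M4 and M3, its nearest profile, against 1.30 between M4 and M6 and 1.32 between M4 and M5. M4 was also nearer to M1 (1.09) and M2 (1.15) than to either other CRC mouse. M3 was nearer to M1 (1.13) and M2 (1.19) than to M5 (1.39) and M6 (1.38). The difference was 0.73 between M5 and M6 and 0.47 between M1 and M2. Results that turn on M3 and M4 are therefore also given without them.

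miR-130a-3p and miR-301a-3p carried nearly all of the family, and neither differed between CRC and healthy colorectum beyond the spread between mice. miR-130a-3p had 950 (M4), 844 (M5) and 1015 CPM (M6) in CRC mice, against 859 (M1), 604 (M2) and 1131 CPM (M3) in healthy mice. All 3 CRC values lay inside the healthy range, whose ends were M2 and M3. On the log2 scale the fold change of miR-130a-3p was 0.11 (SE 0.39, edgeR adjusted p = 0.888).

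miR-301a-3p had 699 (M4), 824 (M5) and 952 CPM (M6) in CRC mice, against 747 (M1), 701 (M2) and 677 CPM (M3) in healthy mice. M5 and M6 lay above every healthy mouse, while M4 lay within the healthy range. The healthy mice were close together (708 ± 36.0 CPM, SD, n = 3), and the CRC mice spread more (825 ± 126 CPM, SD, n = 3). On the log2 scale the fold change of miR-301a-3p was 0.22 (SE 0.36, edgeR adjusted p = 0.742).

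The pair from the chromosome 16 host gene, miR-130b-3p and miR-301b-3p, had higher mean levels in CRC mice, and neither passed the test. miR-130b-3p had 123 (M4), 106 (M5) and 198 CPM (M6) in CRC mice, against 50.9 (M1), 38.8 (M2) and 130 CPM (M3) in healthy mice. M3 lay among the CRC mice, above M4 and M5, and the other healthy mice lay below all 3. Group means were 142 ± 49.1 CPM in CRC and 73.1 ± 49.3 CPM in healthy mice (SD, n = 3 each). On the log2 scale the fold change of miR-130b-3p was 0.96 (SE 0.54, edgeR adjusted p = 0.309), which is 1.94-fold. It was 1.57 without M3 (edgeR adjusted p = 0.0564, in a fit that called 5.90% of all tested miRNAs) and 0.63 without M6 (edgeR adjusted p = 0.697, in a fit that called 0%).

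miR-301b-3p, the least abundant member, had 34.0 (M4), 51.1 (M5) and 45.9 CPM (M6) in CRC mice, against 19.2 (M1), 23.2 (M2) and 33.5 CPM (M3) in healthy mice. Every CRC mouse lay above every healthy mouse, but M4 and M3 were within counting error of each other: their 213 and 304 counts gave exact Poisson 95% intervals of 29.6 to 38.9 CPM in M4 and 29.8 to 37.5 CPM in M3. Means were 43.7 ± 8.73 CPM in CRC and 25.3 ± 7.36 CPM in healthy mice (SD, n = 3 each). On the log2 scale the fold change of miR-301b-3p was 0.79 (SE 0.43, edgeR adjusted p = 0.297), or 1.73-fold.

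**Figure D1:**
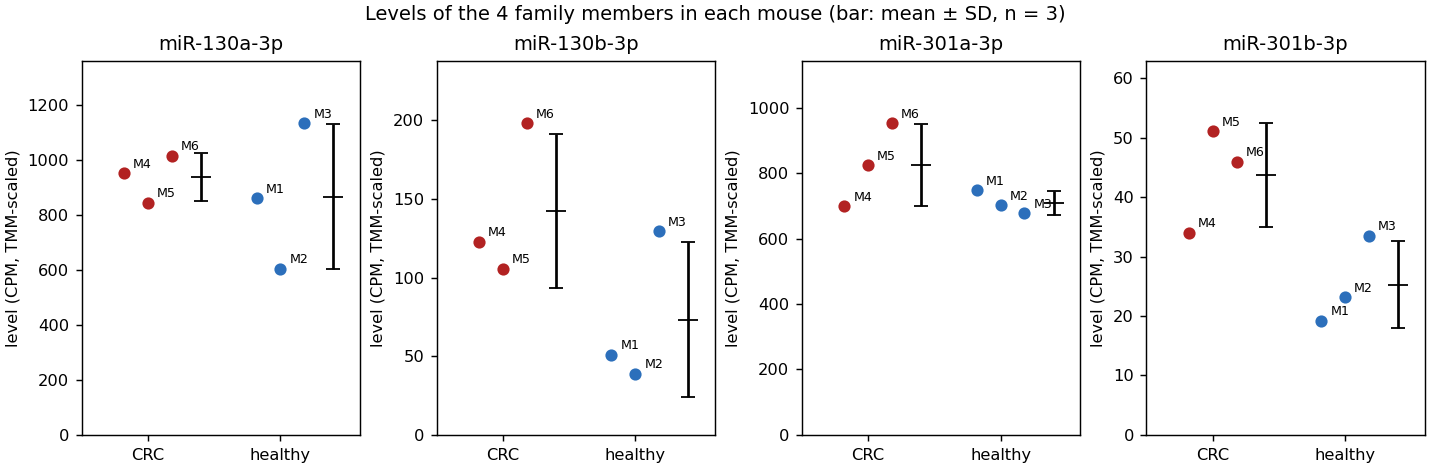
Level (CPM on TMM-scaled library sizes, linear axis from 0) of each member in each mouse, CRC left and healthy right, with the mean ± SD of 3 mice as a black bar. M3 is the highest healthy mouse for miR-130a-3p (1131 CPM), miR-130b-3p (130 CPM) and miR-301b-3p (33.5 CPM), and the lowest for miR-301a-3p (677 CPM).

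Of the 4 members, 4 passed the filter on low counts, 0 had an adjusted p under 0.05 (Benjamini-Hochberg, quasi-likelihood test of edgeR) and 0 an unadjusted one. Over all 878 miRNAs tested, 20 passed, all higher, which is 2.28%, and 204 (23.2%) were at an unadjusted p under 0.05. Of the 4 members, 1 had groups that did not overlap, against 26.5% of all tested. The members' log2 fold changes were all above 0, as were 48.5% of those tested; their CRC means were the higher ones for each. DESeq2 called 12.6% of all tested miRNAs and limma-voom 0%, and neither called a member: adjusted p-values of the 4 ran from 0.268 to 0.881 in DESeq2 and from 0.221 to 0.813 in limma-voom. Scaled by total counts alone, the log2 fold changes of all tested miRNAs were higher by a median of 0.71. miR-130a-3p then had 0.74 and miR-301a-3p 0.98, little above that shift, and miR-130b-3p and miR-301b-3p had 1.50 and 1.48, none with an adjusted p under 0.05.

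The miR-130b-3p and miR-301b-3p differences lay between the outer pairs of mice and not between M4 and M3. On the log2 scale M4 minus M3 was -0.08 for miR-130b-3p and 0.023 for miR-301b-3p, while the mean of M5 and M6 exceeded that of M1 and M2 by 1.69 for miR-130b-3p and 1.18 for miR-301b-3p. For the abundant members that second difference was 0.36 (miR-130a-3p) and 0.29 (miR-301a-3p). In a fit without M3 and M4, 2 mice against 2 chosen with earlier results of these data known, the fold change of miR-130b-3p was 1.50 on the log2 scale (SE 0.32, edgeR adjusted p = 0.000686) and that of miR-301b-3p 0.90 (SE 0.29, edgeR adjusted p = 0.0151). That fit called 53.2% of 1082 tested miRNAs, 25.8% of them as higher, so 2 members of 4 called there is not set apart from the background. miR-130a-3p had 0.07 (SE 0.26) and miR-301a-3p 0.018 (SE 0.24) in the same fit, neither called.

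Some cell type markers moved with the same mice. The summed level of 5 smooth muscle miRNAs, all of them detected, was 218474 (M4), 45601 (M5) and 44610 CPM (M6) in CRC mice, against 576827 (M1), 824291 (M2) and 190625 CPM (M3) in healthy mice. The summed level of 5 white blood cell miRNAs, also all detected, was 8663 (M4), 7305 (M5) and 8519 CPM (M6) in CRC mice, against 4419 (M1), 3745 (M2) and 15764 CPM (M3) in healthy mice. M1 and M2, the mice lowest in miR-130b-3p and miR-301b-3p, were the highest in the smooth muscle sum and the lowest in the white blood cell sum. Of the 5 smooth muscle miRNAs, miR-133a-3p did not have that order: it was highest in M3 (1020 CPM), against 419 (M1) and 511 CPM (M2). That order of the white blood cell sum rested on miR-142a-3p, with 3181 (M4), 4225 (M5) and 5362 CPM (M6) in CRC mice, against 904 (M1), 536 (M2) and 9953 CPM (M3) in healthy mice. The other 4 white blood cell miRNAs summed to 5482 (M4), 3080 (M5) and 3157 CPM (M6) in CRC mice, against 3515 (M1), 3209.5 (M2) and 5810 CPM (M3) in healthy mice, so that M5 and M6 were then the lowest. The 2 neuron miRNAs summed to 94.2 to 162 CPM in CRC and 234 to 392 CPM in healthy mice, and the 3 red blood cell miRNAs to 469 to 1844 CPM in CRC and 282 to 563 CPM in healthy mice. The 4 fibroblast miRNAs summed to 4599 to 10659 CPM in CRC and 6567 to 14087 CPM in healthy mice, and the 2 endothelial ones to 9392 to 12694 CPM in CRC and 11007 to 13527 CPM in healthy mice. The part of these cell types in the member levels was not tested. The 9 intestinal epithelium miRNAs, which mark the labelled tissue, summed to 88497 to 166490 CPM in CRC and 112554 to 219989 CPM in healthy mice, while the hepatocyte miRNA miR-122-5p was at or below 2.90 CPM in every mouse. In bulk tissue, fewer cells of a type and less RNA per cell cannot be told apart.

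**Figure D2:**
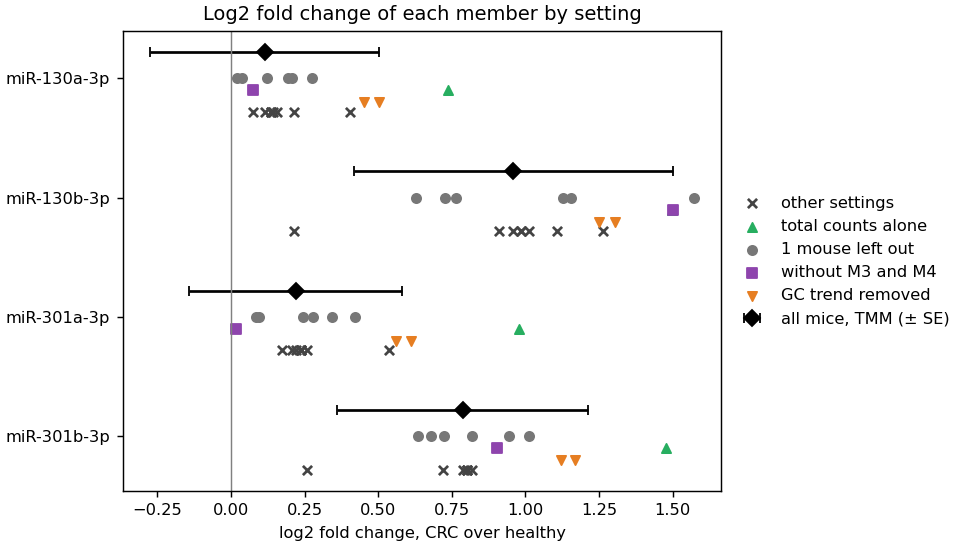
Log2 fold change (CRC over healthy, horizontal axis) of each member with all mice (black diamond, bar ± SE) and in each other setting (other markers). Every point lies above 0; the lowest points of miR-130b-3p (0.21) and miR-301b-3p (0.26) are sums with the near-identical member of the pair, and their own lowest values are 0.63 and 0.64.

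The family as a whole took a small part of the reads. The 4 members summed to 1806 (M4), 1825 (M5) and 2210 CPM (M6) in CRC mice, against 1677 (M1), 1367 (M2) and 1971 CPM (M3) in healthy mice. The CRC mean was 1947 ± 228 CPM and the healthy mean 1672 ± 302 CPM (SD, n = 3 each), so the means differed by about as much as the mice within a group, and M3 lay above M4 and M5. Before TMM scaling the members held 0.171%, 0.283% and 0.324% of all counts in M4, M5 and M6, against 0.121%, 0.0795% and 0.218% in M1, M2 and M3. By rank among all 1915 entries, miR-130a-3p stood between 72 and 89 in CRC and between 79 and 103 in healthy mice. miR-301b-3p stood between 273 and 309 in CRC and between 312 and 372 in healthy mice.

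The order of levels was miR-130a-3p, miR-301a-3p, miR-130b-3p and miR-301b-3p in 5 of 6 mice. In M2, miR-301a-3p had 1.16 times the counts of miR-130a-3p. Elsewhere the ratio of miR-301a-3p to miR-130a-3p was 0.736 to 0.976 in CRC mice and 0.598 to 0.870 in M3 and M1, so these neighbours are close and can change places. The next step was wider, with miR-301a-3p at 4.81 to 7.79 times miR-130b-3p in CRC mice and 5.22 to 18.1 times in healthy mice. miR-130b-3p was above miR-301b-3p in every mouse, although both lie in the same host gene: miR-301b-3p had 0.277, 0.483 and 0.232 of its counts in M4, M5 and M6, against 0.378, 0.597 and 0.259 in M1, M2 and M3. These are counts per mature sequence of 22 or 23 bases, and how efficiently each sequence enters a library was not measured.

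Shares within the family do not depend on the scaling between libraries. miR-130b-3p held 6.79%, 5.80% and 8.96% of the members' counts in M4, M5 and M6, against 3.04%, 2.84% and 6.57% in M1, M2 and M3. The mean difference was 3.03 percentage points, with M3 above M5 (exact permutation test, two-sided, p = 0.2, adjusted p = 0.4 over 4 shares). miR-301b-3p held 1.88%, 2.80% and 2.08% in M4, M5 and M6, against 1.15%, 1.70% and 1.70% in M1, M2 and M3. Its groups did not overlap, by a difference of 0.74 percentage points (exact permutation test, two-sided, p = 0.1, adjusted p = 0.4), and 0.1 is the smallest p that 3 mice against 3 allow. The Wilson 95% intervals, which cover counting error only, overlapped between M4 (1.65% to 2.15%) and M3 (1.52% to 1.90%).

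The abundant members differed in share by less than the mice within a group. miR-130a-3p held 48.3 ± 3.78% in CRC and 50.9 ± 6.63% in healthy mice, and miR-301a-3p 42.3 ± 3.29% in CRC and 43.4 ± 8.55% in healthy mice (SD, n = 3 each). Their exact permutation p-values were 0.7 and 0.9, both 0.9 after adjustment. M3 stood out with the highest miR-130a-3p share, 57.4%, and the lowest miR-301a-3p share, 34.3%. When the near-identical sequences were summed, miR-130a-3p plus miR-130b-3p differed by 0.35 percentage points. Which abundant member had the lower share depended on single mice. Without M3 the differences were 4.24 percentage points for miR-130b-3p, 0.55 for miR-130a-3p and -5.63 for miR-301a-3p. For miR-130a-3p and miR-301a-3p they were -6.07 and 2.86 without M2, and -4.86 and 0.71 without M4. Without M3 and M4 they were 4.44 for miR-130b-3p, 1.02 for miR-301b-3p, -1.62 for miR-130a-3p and -3.83 for miR-301a-3p.

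**Figure D3:**
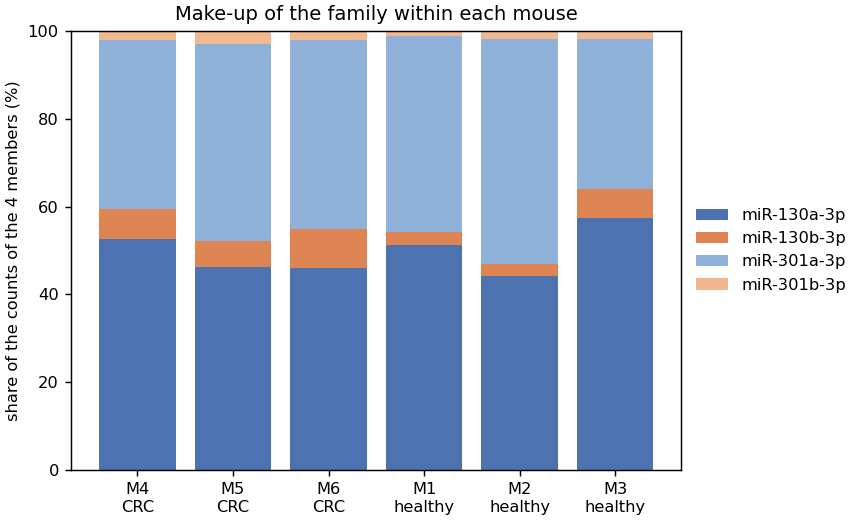
Share (%) of each member in the summed counts of the 4 members, 1 stacked bar per mouse, CRC left and healthy right. miR-130b-3p (dark orange) is thinnest in M1 (3.04%) and M2 (2.84%) and thickest in M6 (8.96%).

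The hairpins differed in which strand was found. From the miR-130a and miR-301a hairpins nearly all reads were 3p, whereas the miR-130b hairpin gave similar numbers from both strands. The 5p share of the miR-130b hairpin was 42.0% in M4, 41.0% in M5 and 32.2% in M6, against 58.2% in M1, 65.2% in M2 and 35.3% in M3. In M1 and M2 the 5p strand was thus the more frequent one, and in M3 and all CRC mice the 3p strand. Of 236 hairpins with both strands at a mean of 10 counts or more, 33.5% had a 5p share between 20% and 80% over all mice.

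In limma's test of the log2 ratio of 5p to 3p counts, the miR-130b hairpin had a mean ratio of -0.69 ± 0.33 in CRC and 0.17 ± 0.93 in healthy mice (SD, n = 3 each), a difference of -0.86 (SE 0.56, adjusted p = 0.492, limma). It was -0.49 without M2 (adjusted p = 0.966, limma) and -1.38 without M3 (adjusted p = 0.0832, limma). The miR-130a hairpin had 1.25%, 0.893% and 0.625% of its reads on the 5p strand in M4, M5 and M6, against 1.84%, 2.67% and 1.30% in M1, M2 and M3. Each CRC mouse was below each healthy mouse, M4 only just below M3. The difference in its log2 ratio was -1.07 (SE 0.50, adjusted p = 0.392, limma). For the miR-301a hairpin it was -1.23 (SE 0.73, adjusted p = 0.469, limma) on 5p counts of 4 to 28 in CRC and 36 to 67 in healthy mice, and without M5 it was -0.35. Those libraries differed in depth, and in CPM the groups overlapped. miR-301a-5p had 4.47 (M4), 0.724 (M5) and 5.53 CPM (M6) in CRC mice, against 4.03 (M1), 5.74 (M2) and 7.38 CPM (M3) in healthy mice. The miR-301b hairpin had too few 5p counts for this test, a mean of 9.17. The 3 tested hairpins gave 0 calls, against 0.424% of the 236. Without M3 and M4 the miR-130a hairpin had -1.57 (adjusted p = 0.00419, limma) and the miR-130b hairpin -1.49 (adjusted p = 0.00601, limma), in a fit that called 39.7% of 247 hairpins. This refit was chosen after seeing the data. It leaves out the mice nearest each other across the groups, which by itself tends to widen group differences.

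**Figure D4:**
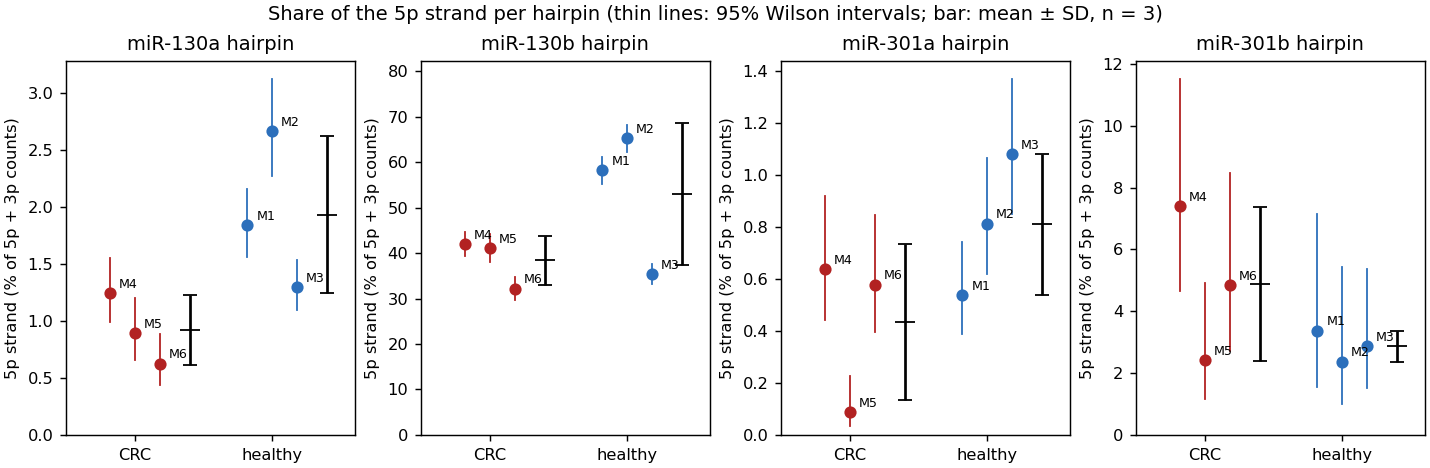
Share (%) of the 5p strand in the 5p plus 3p counts of each hairpin (linear axes from 0 that differ between panels), CRC left and healthy right; thin lines are 95% Wilson intervals and black bars the mean ± SD of 3 mice. The miR-130b hairpin runs from 32.2% (M6) to 65.2% (M2), while the miR-130a and miR-301a hairpins stay at or below 2.67%.

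The partner strands bear other seeds: miR-301a-5p and miR-301b-5p share CTCTGAC, miR-130a-5p has CTCTTTT and miR-130b-5p CTCTTTC. They are the other product of the same precursors, and for miR-130a and miR-130b they did not rank the mice as the 3p strands did. For miR-301a and miR-301b the order of mice also differed between the strands, on few 5p counts. miR-130b-5p had 88.7 (M4), 73.5 (M5) and 94.0 CPM (M6) in CRC mice, against 70.8 (M1), 72.7 (M2) and 70.8 CPM (M3) in healthy mice. The healthy values lay within 2 CPM of each other, while the 3p strand of this hairpin ranged from 38.8 to 130 CPM in the same mice. Every CRC mouse was above them, M5 by less than counting error (exact Poisson 95% interval 66.5 to 81.0 CPM). Its log2 fold change was 0.26 (SE 0.38, edgeR adjusted p = 0.711).

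miR-130a-5p had 12.0, 7.61 and 6.38 CPM in M4, M5 and M6, against 16.1, 16.5 and 14.9 CPM in M1, M2 and M3. All CRC mice lay below all healthy mice, where the 3p strand showed no such order (log2 fold change -0.87, SE 0.47, adjusted p = 0.295, edgeR). Without M3 and M4 miR-130a-5p had -1.51 (adjusted p = 0.00288, edgeR), among the 27.4% of miRNAs called lower in that fit. miR-301b-5p had 17, 7 and 11 counts in M4, M5 and M6, against 6, 5 and 9 counts in M1, M2 and M3, in libraries of different depth, which is 2.72, 1.27 and 2.34 CPM against 0.671, 0.563 and 0.992 CPM. It was the only one of these 4 strands at an unadjusted p under 0.05 (0.0367) and did not pass (log2 fold change 1.49, SE 0.61, adjusted p = 0.182, edgeR). miR-301a-5p had -0.68 (SE 0.66, adjusted p = 0.574, edgeR), with M5 at 4 counts. Of the 4 partner strands 0 passed, against 2.28% of all tested, and 3 had groups that did not overlap, against 26.5%.

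The table holds 4 further entries with the same seed, shown because a wider reading of the family would include them:
miR-721: cAGTGCAAttaaaagggggaa
miR-6341: cAGTGCAAtgatattgtcactat
miR-130c: cAGTGCAAtgttccaaggtgtg
miR-6389: cAGTGCAAtgttaaactttgc
None had more than 12 counts in a mouse, and none of the 4 passed the filter. Together they made up 0.0619%, 0.277% and 0.0481% of the reads with this seed in M4, M5 and M6, against 0.0600%, 0.0494% and 0.123% in M1, M2 and M3. miR-6389 shares a run of 15 bases with miR-130a-3p, so its 0 to 12 counts could include reads of that member.

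Other miRNAs carry an overlapping seed at a shifted position, shown to set the family beside its nearest relatives in sequence:
miR-19a-3p: tGTGCAAAtctatgcaaaactga
miR-19b-3p: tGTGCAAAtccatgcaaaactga
miR-148a-3p: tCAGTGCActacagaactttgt
miR-148b-3p: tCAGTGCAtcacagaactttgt
miR-152-3p: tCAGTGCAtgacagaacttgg
miR-19a-3p and miR-19b-3p, 3p strands of the growth-promoting miR-17-92 cluster, share the run GTGCAA with the family. miR-19b-3p has 2 loci, 1 of them on chromosome X, so its counts need not come from that cluster alone. miR-148a-3p, miR-148b-3p and miR-152-3p, a family known to repress the DNA methyltransferase Dnmt1, share CAGTGCA. These 5 relatives were more abundant as a group, at 29244 to 33857 CPM in CRC and 29710 to 47164 CPM in healthy mice. Of the 5, 0 passed in edgeR and 0 had an unadjusted p under 0.05, with a median log2 fold change of -0.34 against -0.032 over all tested. miR-19a-3p had 0.60 (SE 0.43) and miR-19b-3p -0.46 (SE 0.36). miR-148a-3p had -0.34 (SE 0.36), miR-148b-3p 0.0067 (SE 0.37) and miR-152-3p -0.68 (SE 0.40).

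Other miRNAs known to act on the TGF-beta pathway gave no calls. Of 14 miRNAs known to act on TGF-beta receptors or SMAD proteins, 14 were tested, 0 passed in either direction and 2 had an unadjusted p under 0.05, against 2.28% passing and 23.2% at that p over all tested. These were miR-106b-5p, with a log2 fold change of 1.02 (SE 0.44), and the smooth muscle miR-145a-5p, with -2.48 (SE 0.84). miR-21a-5p, one of the most abundant of the list, had 144799 ± 12991 CPM in CRC and 123608 ± 18922 CPM in healthy mice (SD, n = 3 each). The median of that list was -0.13.

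The miRNAs whose profiles over the 6 mice lay nearest to that of each member were sought among 276 other miRNAs with a mean of 50 CPM or more. The measure was the root-mean-square distance between log2(CPM + 0.5) profiles, each centred on its mean and not scaled. It counts the size of the differences between mice as well as their order, so flat profiles lie close to each other whatever their order. This is a description over 6 mice. For miR-130a-3p they were miR-339-5p (distance 0.16), the blood cell miRNA miR-142a-5p (0.16) and miR-93-5p of the miR-106b-25 cluster (0.16), where the median candidate was at 0.67. For miR-301a-3p the nearest was miR-130b-5p (0.16), followed by the hypoxia-induced miR-210-3p (0.18) and miR-374c-3p (0.19), with a median candidate at 0.67. The profile of miR-301a-3p was itself nearly flat, from 9.40 (M3) to 9.90 (M6) on the log2 scale, so these near profiles need not rank the mice as it did. miR-301b-3p was nearest to miR-126b-3p (0.24), the endothelial miR-126a-5p (0.25) and miR-19a-3p (0.25); the first 2 are largely reverse complements of each other with nearly equal counts, so they may be 1 measurement. For miR-130b-3p the distances were larger: miR-3473c was at 0.36, miR-32-5p at 0.37 and the proliferation-linked miR-106b-5p at 0.37, with a median candidate at 1.10. Its own log2 levels also ran more widely, from 5.30 (M2) to 7.63 (M6), so these distances do not mean a poorer match than those of the flatter members. Among the members, the smallest distance was between miR-130a-3p and miR-301a-3p (0.31), yet these did not rank the mice alike. M3 was the highest of the 6 mice for miR-130a-3p and the lowest for miR-301a-3p. The neighbours in the same host gene, miR-130b-3p and miR-301b-3p, were at 0.50, with M1 and M2 the lowest mice for both. By this measure miR-301b-3p lay nearer to miR-301a-3p (0.41) and miR-130a-3p (0.44) than to miR-130b-3p. The largest distance was between miR-130b-3p and miR-301a-3p (0.74).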

How the data were processed

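Small RNA libraries of colorectal tissue were read on an Ion Proton, per the labels' protocols. The submitters' processing notes name BWA and mm10 (GRCm38). What the authors deposited is raw counts (whole numbers) of 1915 mature miRNAs. How mismatches, strands and reads matching several miRNAs were handled was not given in the sources used here. Mouse M1 has 2 labelled libraries and a single column, used as 1 healthy replicate; whether it is their sum is not given. Mice are separate animals.

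The main test was edgeR's quasi-likelihood test (version 4.0.16, R 4.3.3; filterByExpr, TMM, robust glmQLFit), two-sided, its p-values adjusted by Benjamini-Hochberg over 878 miRNAs. The SE is the log2 fold change over the square root of F. Strand ratios (0.5 added to counts) were tested with limma 3.58.1 over all hairpins passing a count minimum. Scripts were tested on simulated data. Alternatives were other scalings, filters, DESeq2 1.42.0, limma-voom, left-out mice, summed pairs and removal of each library's GC trend (loess, span 0.75). The members, lists and settings were chosen with earlier results of these data known. Named miRNAs are the members, their partner strands, entries of the same or overlapping seeds, up to 4 abundant miRNAs of the TGF-beta list and the 3 nearest profiles of each member; of the same-seed entries, miR-6341, miR-130c and miR-6389 were named after their values were seen. miR-106b-5p was also named for its unadjusted p, and miR-133a-3p because its order of mice differed from that of the smooth muscle sum. 1 further list of miRNAs known to act on a target is not reported here.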

Additional observations from a re-analysis of the deposited data

How the results depend on the processing

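Each member kept a positive log2 fold change in all its settings. The value ran from 0.020 to 0.74 for miR-130a-3p and from 0.018 to 0.98 for miR-301a-3p. It ran from 0.63 to 1.57 for miR-130b-3p and from 0.64 to 1.48 for miR-301b-3p; summed with their near-identical members the pairs had 0.21 and 0.26. Only without M3 and M4 was a member called: miR-130b-3p (1.50) and miR-301b-3p (0.90), with 1 of 4 partner strands, and the strand ratios of the miR-130a (-1.57) and miR-130b (-1.49) hairpins, ratios whose refit was chosen after seeing the data; miR-130b-5p then had -0.051. Over all miRNAs the 20 calls became 43 with total counts alone, 64 with no filter, 0 with the 50 CPM filter, 111 in DESeq2, 0 in limma-voom and 576 without M3 and M4. They ran from 0 (without M1, M5 or M6) to 237 (without M4) when 1 mouse was left out. With the GC trend removed the values were 0.45 for miR-130a-3p, 1.25 for miR-130b-3p, 0.56 for miR-301a-3p and 1.12 for miR-301b-3p. With TMM recomputed, a setting added after seeing the data, they were 0.50, 1.30, 0.61 and 1.17 in that order. All miRNAs shifted by a median of 0.12 and 0.16, and no member was called in either setting. With the trend removed, miR-130b-3p and miR-301b-3p had unadjusted edgeR p-values of 0.0466 and 0.0269. Shares of the abundant members had no steady direction: leaving out 1 mouse gave -6.07 to 0.55 percentage points for miR-130a-3p and -5.63 to 2.86 for miR-301a-3p, whose log2 ratio to miR-130a-3p differed by 0.052. Summed pairs gave 0.35 for miR-130a-3p with miR-130b-3p and -0.35 for miR-301a-3p with miR-301b-3p. The 50 CPM filter left no value for miR-301b-3p or 3 of the partner strands. The causes were not tested. No paired analysis was possible because the labels give the groups no shared numbers. The 5p counts of miR-301a and miR-301b limit what their strand ratios can show.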
